A study of Mus musculus with 6 samples.

Results

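Activin, inhibin and follistatin genes were followed in adult mouse aortic endothelial cells (EC) transduced with Meis1. The group held 9 of the 54429 genes in the deposited table, taken by symbol: the ligand subunit genes Inhba, Inhbb and Inha, the antagonist genes Fst and Fstl3, and the receptor genes Acvr1, Acvr1b, Acvr2a and Acvr2b. It was selected on the level of Inhba, which was about 10-fold higher in Meis1-OE EC. The values of Inhba between the conditions are therefore given as a description with no test, while the other 8 genes were listed for their family. The list was drawn up with earlier results of these data known.

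Libraries came from primary aortic EC of adult wild-type C57BL/6 mice, bought from a supplier, that received either a lentiviral Meis1 overexpression vector (Meis1-OE, 3 libraries) or a control vector (YFP-CTRL, 3 libraries). Both vectors mark cells with YFP. In both conditions 100000 cells were plated per well, the virus was removed after 48 h, YFP+CD31+VEC+ cells were sorted at 72 h, and the sorted cells grew to confluency before RNA was taken from 300000 of them. Ribodepleted RNA-seq was performed with 3 independent replicates per condition. Libraries are named by the letter that their column carries in the deposited table, and values per library always stand in the order A, B, C. Adjusted p-values are Benjamini-Hochberg values over all genes tested, from edgeR's quasi-likelihood test unless DESeq2 is named. The covariate fit adds to the model a proliferation score, which is defined with the library totals.

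Activins are secreted dimers of beta subunits, with beta A encoded by Inhba and beta B by Inhbb. A beta subunit paired with the alpha subunit, encoded by Inha, makes an inhibin, which opposes activin. An activin dimer binds a type II receptor (Acvr2a or Acvr2b), which activates a type I receptor, mainly Acvr1b, also known as ALK4. The type I receptor then phosphorylates Smad2 and Smad3, which act on genes together with Smad4. Follistatin (Fst) and follistatin-like 3 (Fstl3) bind activins outside the cell and keep them from their receptors. Activin A is known to restrain the growth of cultured endothelial cells.

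Promoter sequences of Inhba and Inhbb are shown because these are the ligand genes that were counted. They were read from RefSeq sequence of build GRCm38.p6, the same assembly as the mm10 build listed in the submitters' processing notes. Each is the 250 bases before an annotated gene start, written in the direction of transcription, with CG dinucleotides in capitals. The Inhba gene spans chr13:16004256-16031609, and its window lies at chr13:16011601-16011850 on the plus strand, inside that span. The Inhbb gene spans chr1:119415463-119422248, and its window lies at chr1:119422249-119422498 on the minus strand.
Inhba: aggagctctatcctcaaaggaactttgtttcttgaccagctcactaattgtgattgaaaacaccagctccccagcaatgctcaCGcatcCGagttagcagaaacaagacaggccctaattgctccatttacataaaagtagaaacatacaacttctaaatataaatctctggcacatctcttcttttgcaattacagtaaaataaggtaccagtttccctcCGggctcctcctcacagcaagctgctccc
Inhbb: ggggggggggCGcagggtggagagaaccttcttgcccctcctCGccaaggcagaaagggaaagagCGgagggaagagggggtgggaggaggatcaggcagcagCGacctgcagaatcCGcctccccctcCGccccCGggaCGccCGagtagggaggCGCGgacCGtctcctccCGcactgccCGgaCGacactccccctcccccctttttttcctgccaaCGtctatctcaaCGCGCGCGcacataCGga

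These windows differ in base composition. The Inhba window held 3 CG dinucleotides at 43.2% GC, and the Inhbb window held 21 at 68.0% GC, against medians of 6 and 52.4% over 32851 promoter windows of the same length. Windows of the 4 receptor genes held between 24 and 49 CG dinucleotides at 72.8% to 85.6% GC. The letters TGACAG, a core sequence bound by Meis proteins, were searched on both strands. They stood in 0 of the 8 windows of these genes with an entry, against 15.9% of all windows, which says only that these letters are not in these windows.

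Meis1 itself was counted between 135325 and 157828 times in Meis1-OE libraries and between 39 and 85 times in YFP-CTRL libraries, with reads of the vector and of the endogenous gene not separated. Total counts ran from 34176642 to 47956605 per library. YFP-CTRL libraries stood apart from each other in genes of the cell cycle. A proliferation score, the mean log2(CPM + 1) of 15 genes of S phase and mitosis, was 4.33 in YFP-CTRL library A, 5.30 in B and 6.49 in C, while the Meis1-OE libraries lay between 6.48 and 6.53. The covariate fit therefore takes its slope almost wholly from the controls, and its contrast lies close to Meis1-OE against library C alone. Its p-values carry that limit wherever they are given. Among 10 endothelial markers, Cdh5, which encodes VEC, was the highest. It stood at 1182 to 1452 CPM (counts scaled to library size, TMM-normalized) under Meis1 and 1784 to 2628 CPM in the controls. All 10 together summed to 3366 to 4276 CPM under Meis1 and 4413 to 6122 CPM in the controls. Without Cdh5 the sums were 2184 to 2825 and 2396 to 3494 CPM, and these ranges overlapped. The fitted difference pointed up for 5 of the 10 and down for 5. At an adjusted p under 0.05 in edgeR, 2 were higher and 1 was lower, where 4.14% and 2.73% of all genes were. Of 11 fibroblast and smooth muscle markers, Dcn and Lum never exceeded 3 counts. The whole list summed to 15.8 to 17.9 CPM under Meis1 and 34.9 to 54.2 CPM in the controls. Without Pdgfra, its highest gene, it summed to 4.03 to 6.06 and 1.68 to 23.2 CPM, and the part of such cells in the results was not tested. Of 8 macrophage markers, C1qa, C1qb, Tyrobp and Adgre1 had at most 3 counts in any library. Without Cd68, which these EC also expressed, the macrophage list summed to at most 1.45 CPM in any library.

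Inhba was counted 6047, 6228 and 5908 times in the Meis1-OE group against 400, 391 and 779 times in the controls. After TMM normalization the levels were 132, 137 and 128 CPM in Meis1-OE EC against 11.8, 9.58 and 17.1 CPM in YFP-CTRL EC. Every Meis1-OE library lay far above every control, and the Meis1-OE libraries spread by a factor of 1.08 from lowest to highest. The fitted log2 fold change was 3.36 (standard error 0.22), or 10.3-fold, which placed Inhba 130th from the top of the 16065 genes in the fit. Among the controls, library C had the most Inhba and was also the control with the highest proliferation score. The mean of the Meis1-OE libraries was 11.2 times the level in YFP-CTRL library A, 13.8 times that in B and 7.72 times that in C. Since these are bulk libraries, more cells expressing the gene and more RNA per cell cannot be told apart.

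Inhbb, the other activin beta subunit gene, was counted 413, 334 and 442 times in the Meis1-OE group against 19, 63 and 166 times in the controls. Its levels were 9.04, 7.36 and 9.55 CPM in Meis1-OE EC and 0.559, 1.54 and 3.65 CPM in YFP-CTRL EC. The conditions did not overlap, but the controls spread 6.53-fold from lowest to highest, in the order of their proliferation scores. The log2 fold change was 2.15 (standard error 0.56, 95% interval 0.84 to 3.46, edgeR adjusted p = 0.0645). It was 2.99 without YFP-CTRL library C (edgeR adjusted p = 0.00324), 1.72 without YFP-CTRL library A (0.0459) and 1.17 in the covariate fit (0.0382). DESeq2 gave an adjusted p of 0.000747. The Meis1-OE mean was 15.5, 5.60 and 2.37 times the level of the respective controls, so the size of the difference rested largely on which control was used.

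Inha, on chromosome 1 at 75507077 to 75510366, was listed at 0 in all 6 libraries. A count of 0 allows up to 3 counts, which is 0.0626 to 0.0878 CPM of the total at these depths, so a transcript for the inhibin alpha subunit was not detectable in either condition. This limit covers counting error only.

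The follistatin gene had the opposite pattern. Fst, at chr13:114452262-114458989, was counted 1802, 935 and 1212 times in the Meis1-OE group against 1808, 2015 and 7028 times in the controls. This gave 39.4, 20.6 and 26.2 CPM in Meis1-OE EC and 53.2, 49.4 and 155 CPM in YFP-CTRL EC. All Meis1-OE libraries lay below all controls, and YFP-CTRL library C stood far above the other controls, so that the 3 controls spread 3.13-fold from lowest to highest. The log2 fold change was -1.58 (standard error 0.48, 95% interval -2.70 to -0.46, edgeR adjusted p = 0.0937). Without YFP-CTRL library C it was -0.84 (edgeR adjusted p = 0.0536), and in the covariate fit it was -2.24 (edgeR adjusted p = 0.0225). With DESeq2 the adjusted p was 0.00454. Measured against the Meis1-OE mean, Fst in controls A, B and C was higher by factors of 1.85, 1.72 and 5.38.

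Fstl3, at chr10:79777274-79782630, was close to the limit of detection. It was counted 12, 11 and 10 times in the Meis1-OE group against 4, 4 and 8 times in the controls, and it did not pass the filter on low counts. In a fit with no filter its log2 fold change was 0.86 (standard error 0.50, 95% interval -0.25 to 1.96, edgeR adjusted p = 0.426). The level per kb of transcript was 0.123 ± 0.0119 in Meis1-OE EC and 0.0668 ± 0.0208 in YFP-CTRL EC (CPM per kb, SD, n = 3 each), below that of Fst in every library.

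**Figure D1:**
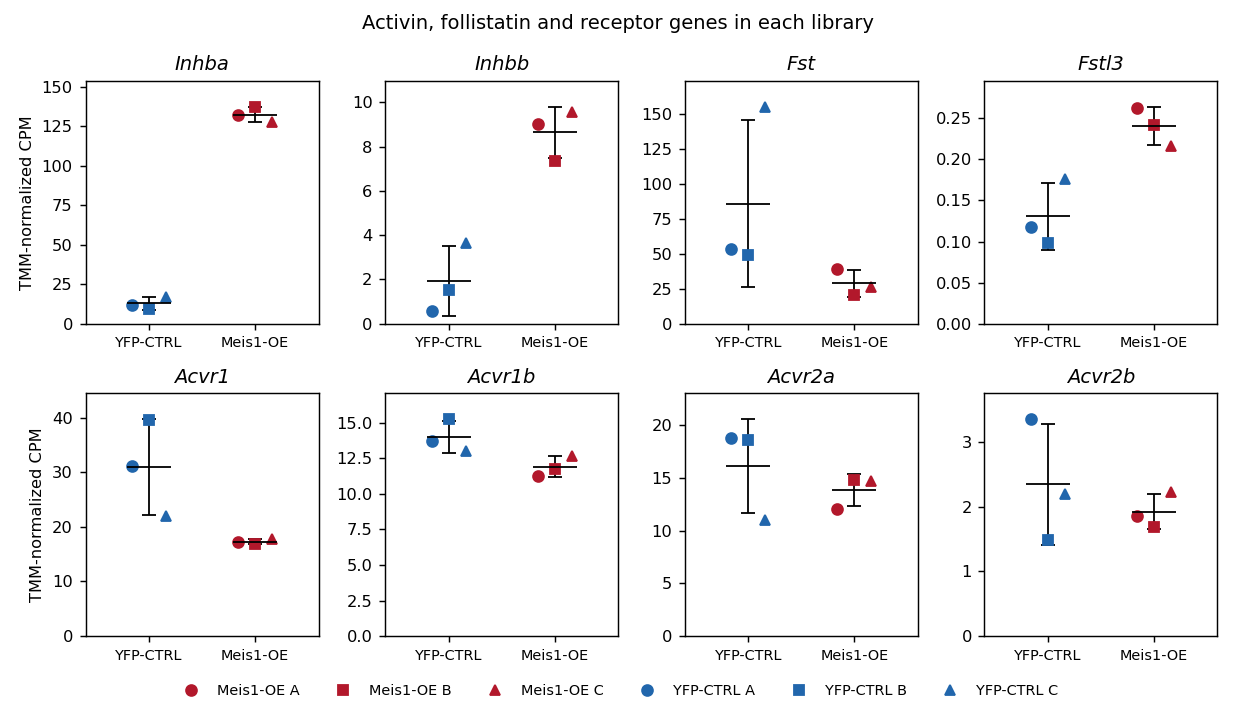
TMM-normalized CPM (vertical axes from 0, each panel on its own scale) of 8 genes in the 3 YFP-CTRL (blue) and 3 Meis1-OE (red) libraries, with circles, squares and triangles for libraries A, B and C and bars for the mean ± SD. Inhba stood at 128 to 137 CPM in Meis1-OE EC and at 9.58 to 17.1 CPM in YFP-CTRL EC, while Fst was highest in YFP-CTRL library C at 155 CPM, and Inha, at 0 in every library, is not drawn.

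Because Inhba and Fst lie in the same libraries, their ratio does not depend on how libraries are scaled. Inhba had 3.36, 6.66 and 4.87 counts for each count of Fst in the Meis1-OE group, against 0.221, 0.194 and 0.111 in the controls. More reads thus came from Inhba than from Fst in every Meis1-OE library, and fewer in every control, with a 28.4-fold difference between the geometric means. The ratio rests on the contrast by which Inhba was chosen and is given without a test.

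Levels were compared between genes per kb of the longest protein-coding transcript in the GENCODE vM1 annotation, which ignores isoforms. On this scale Fst was the highest of the 9 genes in YFP-CTRL EC, at 36.7 ± 25.5 CPM per kb, with 66.2 in library C. Inhba was at 6.56 ± 1.99 CPM per kb in YFP-CTRL EC and at 67.6 ± 2.46 in Meis1-OE EC, where it was the highest and Fst, at 12.3 ± 4.14, came next (SD, n = 3 each). Inhba in Meis1-OE EC thus reached the level that Fst had in YFP-CTRL library C. Of the summed level of Inhba and Inhbb per kb, Inhba made up 96.7% to 97.6% in Meis1-OE libraries and 91.1% to 97.9% in YFP-CTRL libraries, so beta A was the main subunit transcript in both conditions and the ranges overlapped.

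**Figure D2:**
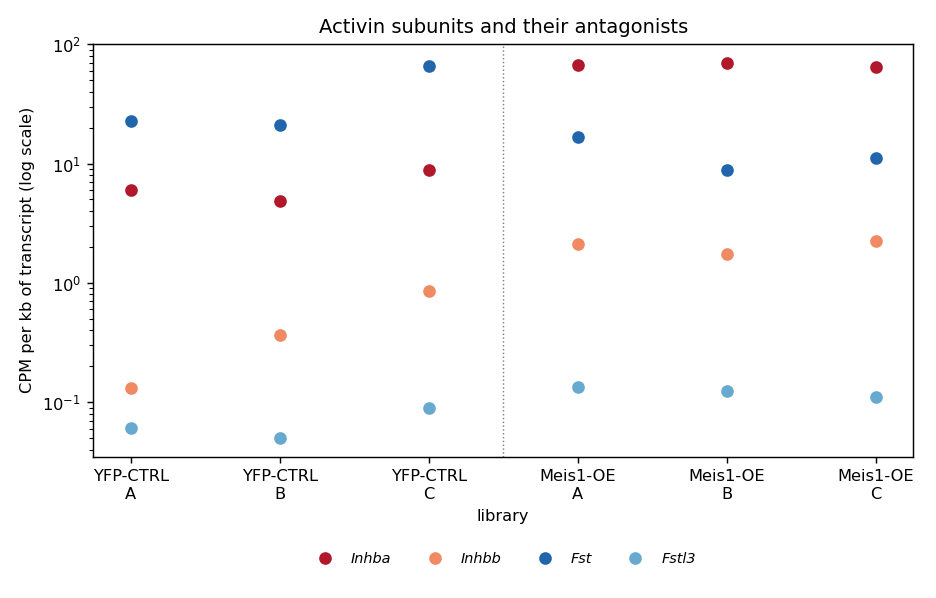
Levels of Inhba, Inhbb, Fst and Fstl3 as CPM per kb of transcript (vertical log axis) in each library (horizontal axis), 1 point per gene and library. Fst lies above Inhba in all 3 YFP-CTRL libraries and below it in all 3 Meis1-OE libraries, and Fstl3 is the lowest of these genes in every library.

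All 4 receptor genes were counted in every library, and none rose. Acvr1, at chr2:58446438-58566828, encodes the type I receptor ALK2, which serves mostly BMP ligands. It was counted 785, 764 and 821 times in the Meis1-OE group against 1056, 1615 and 1000 times in the controls, which gave 17.2, 16.8 and 17.7 CPM against 31.1, 39.6 and 22.0 CPM. The Meis1-OE libraries were tightly grouped and lay below all controls, with YFP-CTRL library C nearest to them. The log2 fold change was -0.84 (standard error 0.21, 95% interval -1.33 to -0.35, edgeR adjusted p = 0.0586, DESeq2 adjusted p = 0.00865). Without YFP-CTRL library C it was -1.05 (edgeR adjusted p = 0.00250), and in the covariate fit it was -0.54 (edgeR adjusted p = 0.249).

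Acvr1b, the main activin type I receptor gene, at chr15:101174072-101213684, lay at a similar level in both conditions. Its counts were 514, 535 and 588 in the Meis1-OE group against 467, 622 and 592 in the controls. The levels of 11.2, 11.8 and 12.7 CPM in Meis1-OE EC lay just below the 13.7, 15.2 and 13.0 CPM of YFP-CTRL EC, with no overlap. The log2 fold change was -0.23 (standard error 0.13, 95% interval -0.54 to 0.07, edgeR adjusted p = 0.301). The interval leaves room for a fall of up to 0.54 on the log2 scale.

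The type II receptor genes overlapped between the conditions. Acvr2a, at chr2:48814109-48903264, was at 12.1, 14.8 and 14.7 CPM in the Meis1-OE group against 18.8, 18.6 and 11.0 CPM in the controls. YFP-CTRL library C lay below every Meis1-OE library, and the other controls lay above them. Its log2 fold change of -0.22 (standard error 0.22, 95% interval -0.74 to 0.31) did not pass (edgeR adjusted p = 0.578). Without YFP-CTRL library C the value was -0.44 (edgeR adjusted p = 0.0323), and in the covariate fit it was 0.23 (0.603). Acvr2b, at chr9:119401583-119442148, had fewer reads than Acvr2a, with 85, 77 and 103 counts in the Meis1-OE group against 114, 61 and 100 counts in the controls. Its log2 fold change was -0.28 (standard error 0.32, 95% interval -1.04 to 0.47, edgeR adjusted p = 0.620), and it changed sign to 0.05 without YFP-CTRL library A.

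Per kb of transcript, the receptor genes kept the same order of means in both conditions. In YFP-CTRL EC they were at 9.38 ± 2.67 for Acvr1, 4.27 ± 0.345 for Acvr1b, 2.84 ± 0.779 for Acvr2a and 1.36 ± 0.543 for Acvr2b (CPM per kb, SD, n = 3 each). In Meis1-OE EC the same genes were at 5.24 ± 0.138, 3.63 ± 0.224, 2.44 ± 0.271 and 1.11 ± 0.156. The ranges of Acvr2a and Acvr2b overlapped narrowly in YFP-CTRL EC, but Acvr2a was the higher in every library, by 1.52 to 3.78 times in YFP-CTRL EC and 1.98 to 2.65 times in Meis1-OE EC. Inhba overlapped in range with Acvr1 in YFP-CTRL EC, and Inhbb overlapped with Acvr2a in Meis1-OE EC, so these neighbours in the order did not differ beyond their spread. Acvr1 was 1.39 to 1.52 times as high as Acvr1b in Meis1-OE libraries and 1.68 to 2.58 times in YFP-CTRL libraries.

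Of the 6 genes other than Inhba that entered the fit, 0 were higher and 0 were lower at an adjusted p under 0.05 in edgeR's quasi-likelihood test, where 4.14% of all 16065 genes were higher and 2.73% were lower. At an unadjusted p under 0.05, 1 was higher (Inhbb) and 2 were lower (Fst and Acvr1), where 12.8% and 13.4% of all genes were. DESeq2 called these same 3 genes, where it called 6.21% of the genes with an adjusted p higher and 6.14% lower. In the covariate fit 1 was higher (Inhbb) and 1 was lower (Fst), where 2.55% and 2.09% of all genes were. Without YFP-CTRL library C 1 was higher (Inhbb) and 2 were lower (Acvr1 and Acvr2a), where 16.5% and 15.2% of all genes were. Without YFP-CTRL library A 1 was higher (Inhbb) and 0 were lower, where 3.73% and 2.63% of all genes were. With no filter on low counts 1 was higher (Inhbb) and 0 were lower, where 2.38% and 1.39% were. In these 6 genes 1 did not overlap between the conditions on the higher side (Inhbb) and 3 on the lower side (Fst, Acvr1 and Acvr1b), where 17.2% and 15.9% of all genes tested did so. The median log2 fold change of the 6 genes was -0.26, beside 0.01 for all genes tested.

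**Figure D3:**
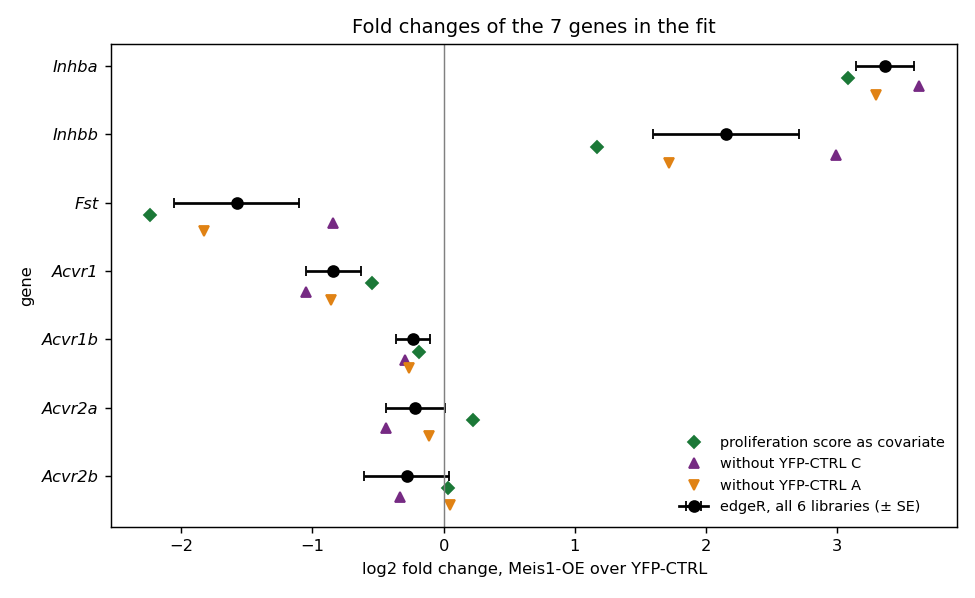
Log2 fold change of Meis1-OE over YFP-CTRL (horizontal axis) for the 7 genes in the fit, with black circles and bars for edgeR on all 6 libraries ± standard error, green diamonds for the covariate fit, and triangles for fits without YFP-CTRL library C (purple) or A (orange). Inhba stays between 3.08 and 3.62 in the fits drawn, Inhbb between 1.17 and 2.99, Fst between -2.24 and -0.84, and Acvr2a and Acvr2b lie on both sides of 0.

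YFP-CTRL library C had a proliferation score like that of the Meis1-OE libraries and so gives a view of these genes at a similar score, although from 1 control library with no test. Against it, Inhba was 7.72 times and Inhbb 2.37 times as high in the Meis1-OE mean, while Fst was 5.38 times and Acvr1 1.28 times as high in the control. Acvr2a was 1.26 times as high in the Meis1-OE mean as in this control. The part of cell growth in the differences from YFP-CTRL libraries A and B was not tested.

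**Figure D4:**
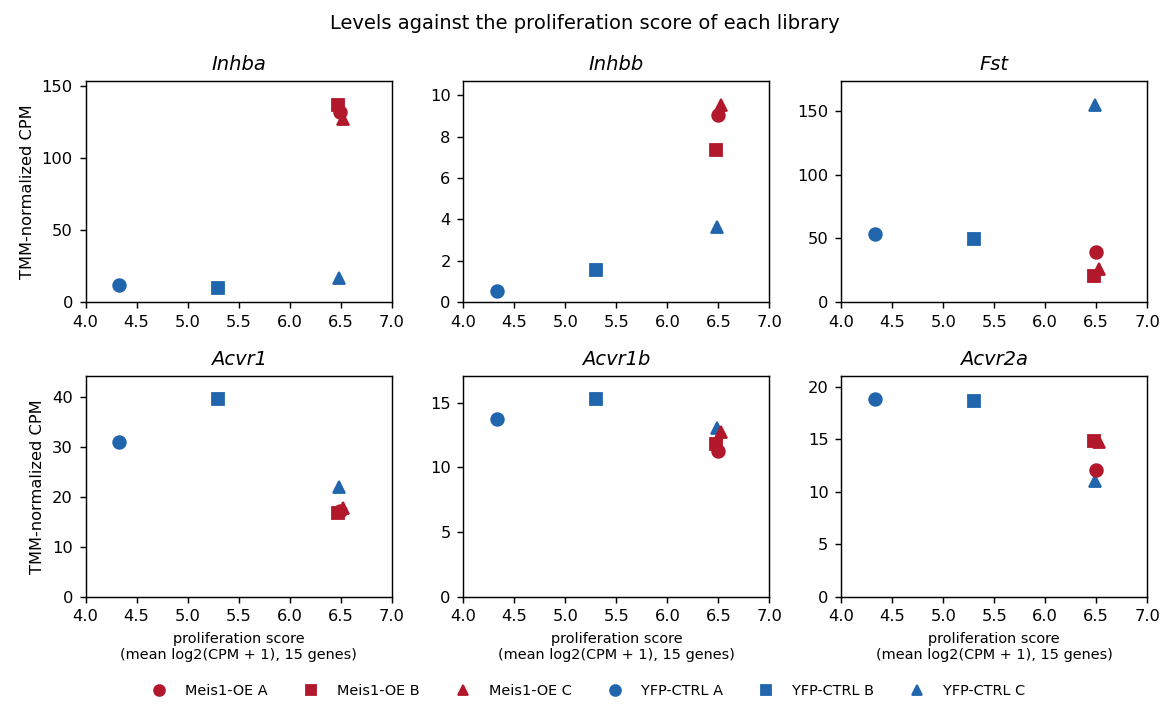
TMM-normalized CPM (vertical axes from 0) of 6 genes against the proliferation score of each library (horizontal axis, mean log2(CPM + 1) of 15 genes), in red for Meis1-OE and blue for YFP-CTRL, with circles, squares and triangles for libraries A, B and C. At scores from 6.48 to 6.53, YFP-CTRL library C lies apart from the Meis1-OE libraries for Inhba (17.1 against 128 to 137 CPM) and Fst (155 against 20.6 to 39.4 CPM), and close to them for Acvr1b.

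The other genes of the pathway were taken from a list of 50, of which 35 entered the fit. Of these 35, 4 were higher and 3 were lower at an adjusted p under 0.05 in edgeR's quasi-likelihood test, beside 4.14% and 2.73% of all genes, and the median log2 fold change was -0.17. None of the 7 passed under every library left out, since leaving out any single Meis1-OE library gave 0 to 2 higher and 0 lower. Calls over all genes fell in these fits as well, from 665 to between 115 and 329 higher and from 438 to between 16 and 68 lower. Without YFP-CTRL library B 0 were higher and 2 were lower, where 204 and 66 over all genes were. Leaving out YFP-CTRL library C gave 8 higher and 10 lower, where 16.5% and 15.2% of all genes were. DESeq2 called 7 higher and 6 lower, where 6.21% and 6.14% of all genes were.

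Of 7 further ligand genes, Inhbc, Inhbe, Nodal and Gdf3 were at 0 in every library, Mstn and Gdf1 had at most 3 counts, and Gdf11 alone was tested. Gdf11, whose product uses the same type II receptors and is also bound by follistatin, averaged 19.0 ± 0.604 CPM under Meis1 and 23.7 ± 3.63 CPM without it (SD over n = 3 per condition). Its log2 fold change was -0.32 (edgeR adjusted p = 0.210).

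Among 8 further receptors and co-receptors, 4 entered the fit and 1 was lower, where 2.73% of all genes were. Tgfbr3 encodes betaglycan, a co-receptor that strengthens the binding of inhibin to type II receptors. It fell from 18.5 ± 3.20 to 11.1 ± 0.721 CPM (SD over n = 3 per condition). Its log2 fold change was -0.73 (edgeR adjusted p = 0.0405, and at most 0.216 with 1 library left out). Acvrl1, the endothelial type I receptor ALK1, averaged 226 ± 20.0 CPM under Meis1 against 223 ± 34.1 CPM, with a log2 fold change of 0.02 (edgeR adjusted p = 0.951). Acvr1c, the type I receptor ALK7, had at most 1 count in any library.

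Proprotein convertases cut activin precursors to release the active dimer. Among 9 genes of ligand binders and convertases 5 entered the fit and 2 rose, where 4.14% of all genes did. Pcsk6 was counted 4554, 6267 and 7735 times in the Meis1-OE group against 877, 1610 and 2046 times in the controls. Its level rose from 36.8 ± 9.88 to 135 ± 33.8 CPM (SD over n = 3 per condition). Its log2 fold change was 1.87 (edgeR adjusted p = 0.0107, and 0.0325 in the covariate fit). Pcsk5 was counted 17, 72 and 68 times in the Meis1-OE group against 0, 2 and 4 times in the controls (edgeR adjusted p = 0.0265, and 0.131 in the covariate fit). It passed the filter on low counts only through the Meis1-OE libraries, and with at least 10 counts required in every library it was not tested, which left 3 pathway genes higher. Furin was at 364 ± 56.2 CPM against 294 ± 73.1 CPM (edgeR adjusted p = 0.378). Fstl1, Wfikkn1 and Furin did not pass the threshold, and Wfikkn2, Lefty1, Lefty2 and Cer1 did not exceed 5 counts anywhere.

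No gene listed for the Smad2/3 relay passed the threshold in edgeR's main fit. Besides Smad2, Smad3 and Smad4, the list held regulators such as Smurf1, Smurf2, Ppm1a, Ski, Tgif1, Tgif2 and Trim33. Of the 12 listed genes 11 entered the fit, with a median log2 fold change of -0.33. Beside 8185 positive and 7880 negative log2 fold changes over all genes tested, 1 was positive and 10 were negative. Over such a mixed list, the split of signs gives no direction for signalling. Smad3, the positive one, averaged 92.8 ± 1.34 CPM under Meis1 against 70.4 ± 2.71 CPM (SD over n = 3 per condition). Its log2 fold change was 0.40 (edgeR adjusted p = 0.0536, DESeq2 adjusted p = 0.0176). Smad2 was at 33.6 ± 1.09 against 39.4 ± 4.10 CPM (edgeR adjusted p = 0.270), and Smad4 at 80.1 ± 4.02 against 107 ± 7.76 CPM (edgeR adjusted p = 0.0603, DESeq2 0.0269). At an unadjusted p under 0.05, edgeR gave 1 higher and 4 lower among the 11, where 12.8% and 13.4% of all genes were. DESeq2 called 1 higher (Smad3) and 2 lower (Smad4 and Ppm1a), where 6.21% and 6.14% of all genes were. The conditions did not overlap for 1 gene on the higher side and 5 on the lower, where 17.2% and 15.9% of all genes did so. Without YFP-CTRL library C, genes past the threshold included Smad2, Smad3 and Smad4 (edgeR adjusted p = 0.0268, 0.0127 and 0.00593). In that fit 16.5% of all genes were higher and 15.2% lower.

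All 14 genes listed as targets of Smad2/3 entered the fit. Of these, 2 rose and 2 fell in edgeR, where 4.14% and 2.73% of all genes did. DESeq2 called 4 higher, with Bhlhe40 and Pdgfb added, and 2 lower, where 6.21% and 6.14% of all genes were. Pmepa1, a feedback inhibitor of the pathway, rose from 18.8 ± 6.47 to 49.3 ± 8.80 CPM, with a log2 fold change of 1.39 (edgeR adjusted p = 0.0278). Fn1, the gene of the matrix protein fibronectin, rose from 2013 ± 404 to 3638 ± 467 CPM (edgeR adjusted p = 0.0376). Nox4, which encodes an NADPH oxidase, fell from 143 ± 55.6 to 53.0 ± 2.01 CPM (edgeR adjusted p = 0.0221). Cdkn2b, the gene of a cyclin-dependent kinase inhibitor that TGF-beta signalling is known to induce, fell from 95.8 ± 21.6 to 41.6 ± 2.12 CPM (edgeR adjusted p = 0.0122). The error in this paragraph is the SD over n = 3 libraries per condition.

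Smad7, the inhibitory Smad that the pathway induces, averaged 42.4 ± 1.97 CPM under Meis1 against 41.1 ± 16.3 CPM (SD over n = 3 per condition, edgeR adjusted p = 0.933). In the covariate fit its log2 fold change was 0.74 (edgeR adjusted p = 0.0210). The targets Skil (0.72, edgeR adjusted p = 0.0244) and Bhlhe40 (1.17, edgeR adjusted p = 0.0464) were also higher in this fit, where 2.55% of all genes were. Pmepa1 stayed past the threshold (0.0376). Fn1, with a log2 fold change of 0.85 in the main model and 0.71 in this one, did not (0.119). In that fit Cdkn2b also passed (0.0340) and Nox4, at -1.33 beside -1.43 in the main model, did not (0.0708).

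**Figure D5:**
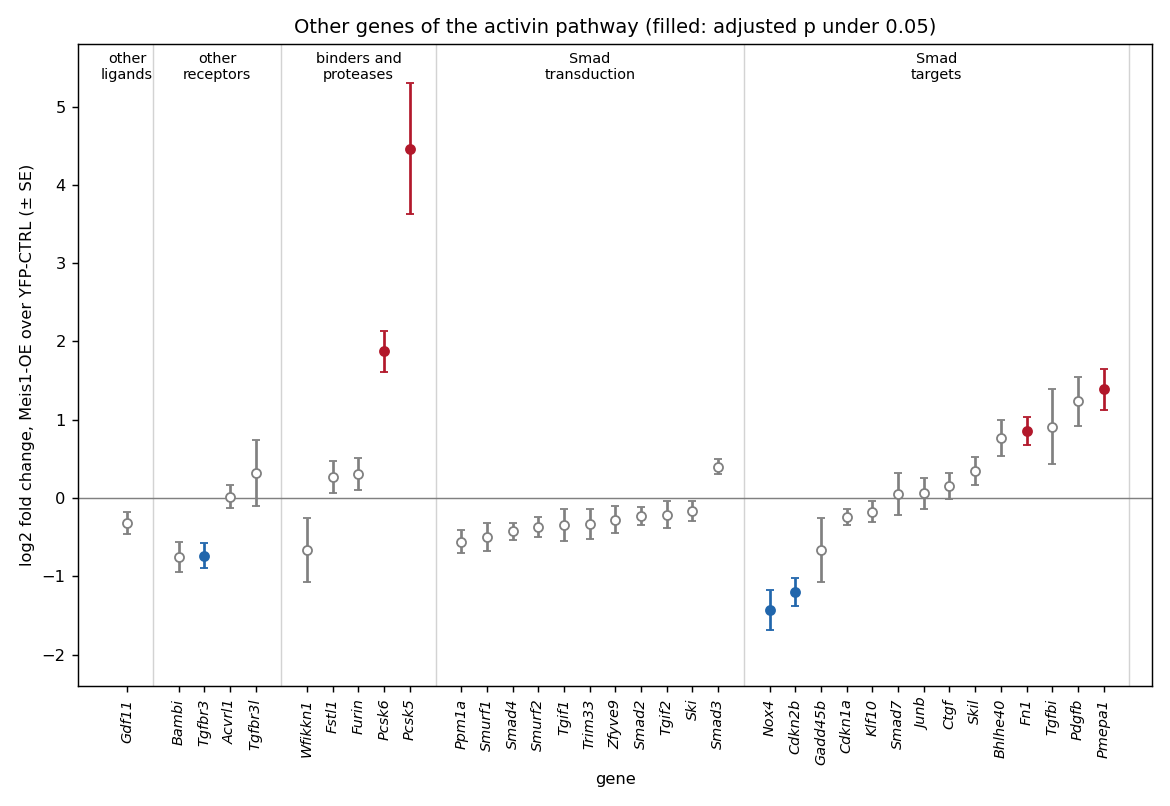
Log2 fold change of Meis1-OE over YFP-CTRL (vertical axis, ± standard error) of the 35 tested genes of the activin pathway outside the group, by list (Ccn2 appears under its older symbol Ctgf). Filled points passed an adjusted p of 0.05 in edgeR: Pcsk5, Pcsk6, Pmepa1 and Fn1 were higher (red) and Tgfbr3, Cdkn2b and Nox4 lower (blue), while the genes listed for the Smad relay lay between -0.56 and 0.40 and none is filled. Pcsk5 passed the filter on low counts only through the Meis1-OE libraries.

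Genes with a pattern most like that of Inhba were found by the root mean square difference of centred log2 CPM (prior count 2) over the 6 libraries, among 16058 other genes. The nearest were Gfra2, Fam124a, Myo7a, Cldn15 and Vegfc, with differences of 0.151, 0.208, 0.232, 0.234 and 0.234, against a median of 1.72. Gfra2 and Fam124a were low, at no more than 1.41 CPM in any library. In the controls they lay at 0.0245 to 0.0660 and 0.0589 to 0.132 CPM, and they passed the filter on low counts only through the Meis1-OE libraries. Their fitted log2 fold changes were 4.45 and 3.75, beside 3.36 for Inhba. The prior count draws in the differences of genes with so few reads, so their place in this order depends on it. Myo7a, which encodes an unconventional myosin, was at 11.6, 17.3 and 16.5 CPM in the Meis1-OE group and at no more than 2.38 CPM in the controls, with its highest control, as for Inhba, in library C. Vegfc, which encodes a lymphatic growth factor, was at 8.86, 14.1 and 11.6 CPM in the Meis1-OE group and at no more than 1.92 CPM in the controls. Over 2 conditions of 3 libraries, this likeness is largely the difference between the conditions.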

How the data were processed

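Adult mouse aortic EC were profiled by ribodepleted RNA-seq in 6 libraries. The authors deposited estimated counts per gene, not normalized, in 1 table. The submitters' processing notes list build mm10, and the aligner, counter and annotation are not given in the sources used here. Groups came from the sample labels. Columns carry letters and the labels numbers, so no pairs were set. Strand use in counting is not stated, so reads of overlapping genes may be shared.

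Counts were rounded and tested in R 4.3.3 with edgeR 4.0.16 (TMM, filterByExpr, quasi-likelihood test, Benjamini-Hochberg adjustment over 16065 genes). Standard errors were derived from the F statistic, and the biological coefficient of variation was 0.233. DESeq2 1.42.0 was an alternative. On simulated data for 16065 genes, edgeR found 81% of the genes changed 4-fold and 41.4% of those changed 2-fold, with 13 false among 135 calls, and DESeq2 made 202 calls with 49 false. The simulated counts were independent between genes, with 200 genes changed and no proliferation gradient among the controls. These rates may therefore not carry over to the real libraries.

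Members and lists were chosen with earlier results of these data known. Named genes were every member, pathway genes past the threshold, 8 pathway genes set by name, and the 5 genes most like Inhba. Other pathway genes, such as Gdf11, were named after their values were seen. A further gene of the pathway list is not reported here and was left out of its counts. Figures used matplotlib 3.10.9. Promoters and gene spans came from RefSeq, GRCm38.p6 (8 and 9 of 9 genes matched).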

Additional observations from a re-analysis of the deposited data

How the results depend on the processing

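Inhba kept its direction under every alternative tried, and its log2 fold change lay between 3.20 and 3.62 when single libraries were left out and at 3.08 with the proliferation covariate. Of 84 values of the 6 other members tested under alternatives, 71 kept their direction and side of the threshold, 10 came past it and 3 changed sign. The last were Acvr2a (0.23) and Acvr2b (0.030) with the proliferation covariate and Acvr2b without YFP-CTRL library A (0.047), where single libraries left out gave -0.52 to 0.047, and the cause was not tested. Of the members other than Inhba, with 0 higher and 0 lower, no filter gave 1 higher, the covariate gave 1 higher and 1 lower, DESeq2 gave 1 higher and 2 lower, and single libraries left out gave 0 to 1 higher and 0 to 2 lower. Of the pathway genes, with 4 higher and 3 lower, DESeq2 gave 7 and 6, and single libraries left out gave 0 to 8 higher and 0 to 10 lower. Over all genes, 665 were higher and 438 lower in the main fit. Library totals gave 1048 and 179 (85.4% higher, against 60.3%, with the median log2 fold change moved to 0.15). The covariate gave 410 and 335, and DESeq2 gave 1128 and 1115. Single libraries left out gave 115 to 2717 higher and 16 to 2498 lower.

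Columns of the same letter deviated together with correlations of 0.267, 0.120 and 0.070 for A, B and C. Columns of different letters ran from -0.269 to 0.214, the highest being Meis1-OE library C with YFP-CTRL library B. With 3 libraries per condition, such values cannot decide whether the letters pair the libraries. With the letter as a replicate block, 544 genes were higher and 189 lower over all genes. In that fit 2 pathway genes were higher and 2 lower, and no member other than Inhba passed. Fstl3 and Inha were too low for the filtered fit.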
